A study of Mus musculus with 6 samples.

Results

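The genes described here are 10 genes of growth plate cartilage that do not encode collagens: Acan, Hapln1, Comp, Matn1, Matn3, Chad, Snorc, Cnmd, Panx3 and Ihh. They were chosen by name, and each of the 10 symbols occurred exactly 1 time among 54532 genes in a table of FPKM (fragments per kilobase of gene, scaled to library size) from mouse femurs. The labels give 6 samples in 2 groups of 3. Mice of the Zin group were given zingerone, found in cooked ginger, orally over 8 weeks at a daily dose of 100 mg/kg. The OVX group received saline, and OVX stands for ovariectomy, which models bone loss after the menopause. All animals are labelled WT. The labels do not say whether the Zin mice were ovariectomized too, and the sources used here give neither strain nor age.

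The columns of the 3 OVX libraries carry the library names of the labels, A1, A2 and A3. The other 3 columns, B1, B2 and B3, match no library name of the labels, and were taken as the 3 Zin libraries by elimination. Which Zin sample each of them holds is not known, and every comparison of Zin with OVX below rests on that elimination. The labels name both femoral tissue ground to powder and RAW264.7, a macrophage-like cell line. Bone transcripts were present in all libraries: Col1a1, the main collagen of bone, stood at 788, 493 and 1118 FPKM in the Zin libraries B1, B2 and B3, and at 614, 1597 and 364 FPKM in the OVX libraries A1, A2 and A3. The libraries held between 16275350 and 17117456 reads over the listed genes. The labels number weeks 8, 9 and 10 within each group and name no separate animals, so p-values measure the spread between these samples, which may be technical in part.

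The growth plate is the cartilage disc near the end of a long bone in which chondrocytes divide, enlarge and are replaced by bone. Its matrix is built on collagen fibrils and on aggregates of aggrecan with hyaluronan, tied together by adaptor proteins such as matrilins and COMP. Indian hedgehog, released by chondrocytes that are about to enlarge, sets the pace of this sequence together with parathyroid hormone-related protein. In mice the growth plate remains after sexual maturity, and cartilage is also found at the joint surface.

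Promoter sequence was at hand for 7 of the 10 genes, as the 250 bases before the RefSeq transcription start (GRCm38.p6), and was not used for Comp, Snorc and Panx3. The RefSeq start is not always the start of the gene coordinates given below. The Acan window ends at 79053225, ahead of its gene start at 79053483. The bases checked just after its RefSeq start were not found in its GENCODE M21 transcripts, so its strand is given as listed. The Cnmd window, on the minus strand, runs from 79662184, beyond its gene end at 79662170. The Hapln1 window, 89540386 to 89540635, lies inside its gene, which starts at 89539796. The sequences of Cnmd, Acan, Matn3 and Chad are shown because these genes varied together across libraries while their promoters differ in make-up. Capitals mark every match to the letters ACAAAG or ACAATG (hexamers that SOX proteins can bind), TATAAA (the TATA box) and GGGCGG (the GC box), searched on both strands with overlaps allowed. Cnmd lies at chr14:79662184-79662433 on the minus strand, Acan at chr7:79052976-79053225, Matn3 at chr12:8947679-8947928 and Chad at chr11:94564797-94565046, the last 3 on the plus strand, and each is written 5′ to 3′ along its gene.
Cnmd: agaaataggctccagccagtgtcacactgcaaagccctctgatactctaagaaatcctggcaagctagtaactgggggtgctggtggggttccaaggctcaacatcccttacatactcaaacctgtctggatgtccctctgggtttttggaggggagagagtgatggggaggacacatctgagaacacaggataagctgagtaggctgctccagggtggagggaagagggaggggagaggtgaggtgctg
Acan: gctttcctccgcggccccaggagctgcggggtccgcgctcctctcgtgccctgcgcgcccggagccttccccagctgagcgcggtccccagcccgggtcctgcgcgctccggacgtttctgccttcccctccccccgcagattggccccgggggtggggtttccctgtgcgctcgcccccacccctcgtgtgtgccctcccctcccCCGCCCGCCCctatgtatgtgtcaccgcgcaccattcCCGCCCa
Matn3: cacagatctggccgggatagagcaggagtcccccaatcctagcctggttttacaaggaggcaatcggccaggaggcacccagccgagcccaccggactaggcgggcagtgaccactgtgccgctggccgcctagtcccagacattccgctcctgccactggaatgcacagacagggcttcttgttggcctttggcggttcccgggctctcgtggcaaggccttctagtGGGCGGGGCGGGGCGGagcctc
Chad: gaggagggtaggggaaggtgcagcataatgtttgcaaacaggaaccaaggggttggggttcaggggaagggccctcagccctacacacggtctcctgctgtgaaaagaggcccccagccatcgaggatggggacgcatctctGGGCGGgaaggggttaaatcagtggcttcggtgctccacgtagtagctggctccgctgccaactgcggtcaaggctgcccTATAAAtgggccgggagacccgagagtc

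Neither SOX hexamer occurred in any of the 7 windows, while 25.2% of all 32851 promoter windows of the same length held at least 1 of them. A TATA box occurred in 1 of the 7, that of Chad, starting 28 bases before the start site, against 12.4% of all windows. The GC box occurred in 5 of the 7 (Acan, Matn3, Chad, Ihh and Matn1), against 32.7% of all windows. The share of G and C was 74.4% in the Acan window and 54.0% in the Cnmd window, the ends of the range over the 7 genes, and the median of all windows was 52.4%. A match describes letters only, and no match says only that these letters are not in these windows.

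Cartilage genes differed far more between libraries of 1 group than between the groups. All 10 genes were highest in the same pair of libraries, Zin B1 and OVX A2, and only Matn3 was higher in B1 than in A2. Among all 13968 genes tested, 7.48% had B1 and A2 as their 2 highest libraries. The summed level of the 10 genes was 316, 32.0 and 77.4 FPKM in B1, B2 and B3, and 7.68, 443 and 43.7 FPKM in A1, A2 and A3. They took 0.0777%, 0.00847% and 0.0221% of reads in B1, B2 and B3, and 0.00199%, 0.106% and 0.00991% of reads in A1, A2 and A3. In bulk tissue, fewer cells of a type and less RNA per cell cannot be told apart.

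**Figure D1:**
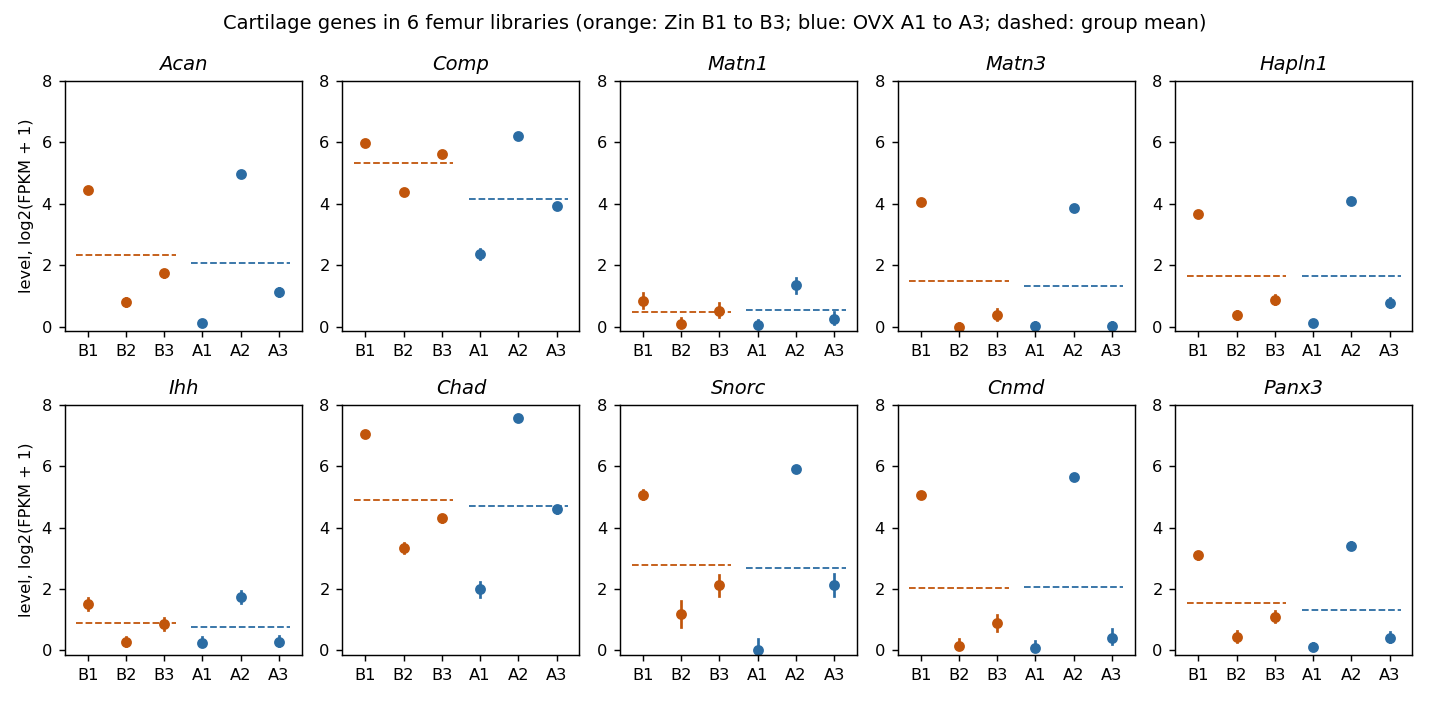
Level of each of the 10 cartilage genes in the 6 libraries, as log2(FPKM + 1) on the vertical axis, with Zin libraries B1 to B3 in orange and OVX libraries A1 to A3 in blue; bars are 95% exact Poisson intervals of the reads and dashed lines are group means. In every panel B1 and A2 are the highest libraries, and the group means lie close together compared with the distance between points.

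Aggrecan, the large chondroitin sulfate proteoglycan that gives cartilage its resistance to compression, is encoded by Acan (ENSMUSG00000030607, mm10 chromosome 7, 79053483 to 79115099, plus strand). Acan stood at 20.99, 0.734 and 2.35 FPKM in B1, B2 and B3, and at 0.0930, 30.0 and 1.198 FPKM in A1, A2 and A3. It was thus high in 1 library of each group and low in the other 2, and the groups overlapped. The fold between its highest library, A2, and its lowest, A1, was 323 (95% exact interval 185 to 626, from 12 reads in A1, counting error only).

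Hapln1 encodes the link protein that fixes aggrecan to hyaluronan (ENSMUSG00000021613, chromosome 13, 89539796 to 89611652, plus strand). Its level was 11.7, 0.286 and 0.831 FPKM in B1, B2 and B3, and 0.0784, 15.9 and 0.707 FPKM in A1, A2 and A3. Hapln1 varied along with Acan, as did other genes of the set such as Panx3. The level of Acan was 1.80, 2.57 and 2.83 times that of Hapln1 in B1, B2 and B3, and 1.19, 1.89 and 1.69 times in A1, A2 and A3. The ratio in A1 rests on 12 Acan and 8 Hapln1 reads. The gene Gm8546 overlaps Hapln1 on the opposite strand, at 0.495, 0.429 and 0.132 FPKM in B1, B2 and B3 and at 0.229, 0.704 and 0.0479 FPKM in A1, A2 and A3. Without stated strandedness, reads in the shared stretch cannot be told apart.

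Comp, cartilage oligomeric matrix protein, is a pentameric thrombospondin that binds collagen fibrils and is made in tendon as well as cartilage (ENSMUSG00000031849, chromosome 8, 70373558 to 70382066, plus strand). Comp stood at 61.5, 20.0 and 48.7 FPKM in B1, B2 and B3, and at 4.17, 73.2 and 14.2 FPKM in A1, A2 and A3. It had a narrower range than aggrecan, with a 17.5-fold distance between A2 and A1 (95% exact interval 15.3 to 20.2). B3 was the second highest Zin library for all 10 genes, and the distance from B1 to B3 ranged from 1.26-fold for Comp, 1.87-fold for Matn1 and 2.32-fold for Ihh to 53.3-fold for Matn3, with Acan at 8.93-fold and Cnmd at 38.6-fold.

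The matrilins are adaptor proteins that form filaments between collagen and proteoglycan. Matn3 (ENSMUSG00000020583, chromosome 12, 8947929 to 8972028, plus strand) stood at 15.8, 0 and 0.296 FPKM in B1, B2 and B3, and at 0.0192, 13.7 and 0.0201 FPKM in A1, A2 and A3. Nearly all of its reads came from 2 libraries, 760 in B1 and 695 in A2, against 0, 16, 1 and 1 in B2, B3, A1 and A3. The 0 of B2 allows as many as 3 reads, which for Matn3 is 0.0600 FPKM, so that B1 was at least 263-fold higher than B2 at that limit, and 213-fold higher at the lower end of the exact 95% interval of the ratio. Matn1 (ENSMUSG00000040533, chromosome 4, 130944385 to 130955475, plus strand) had the lowest mean over the 6 libraries, although Matn3 was lower than Matn1 in B2, B3, A1 and A3. Matn1 had 0.782, 0.0602 and 0.418 FPKM in B1, B2 and B3, from 25, 2 and 15 reads, and 0.0289, 1.54 and 0.181 FPKM in A1, A2 and A3, from 1, 52 and 6 reads. The level of Matn3 was 20.2 times that of Matn1 in B1 and 8.87 times in A2, whereas in B3 it was 0.708 times, and A1 and A3 had 1 Matn3 read each.

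Chad encodes chondroadherin, a leucine-rich repeat protein that binds collagen and integrins on chondrocytes (ENSMUSG00000039084, chromosome 11, 94565047 to 94569127, plus strand). Chad was the most abundant of the 10 genes in B1, A2 and A3, at 129.999, 9.00 and 18.7 FPKM in B1, B2 and B3, and at 2.96, 188 and 23.1 FPKM in A1, A2 and A3. The order of the low libraries was not that of Comp, since Chad was higher in A3 than in B3 and B2. Acsf2 overlaps Chad on the opposite strand and varied little, from 7.11 to 10.7 FPKM in the Zin libraries and from 7.97 to 9.56 FPKM in the OVX libraries.

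Snorc, Cnmd and Panx3 encode membrane proteins of chondrocytes. Snorc, a small transmembrane proteoglycan (ENSMUSG00000026258, chromosome 1, 87470271 to 87475482, plus strand), reached 32.7, 1.25 and 3.32 FPKM in B1, B2 and B3, and 0, 59.3 and 3.35 FPKM in A1, A2 and A3. The 0 in A1 allows up to 0.240 FPKM, which puts A2 at least 247-fold higher at that limit of 3 reads, and 199.97-fold higher at the lower end of the exact 95% interval of the ratio. Cnmd, chondromodulin, known as an inhibitor of vessel ingrowth (ENSMUSG00000022025, chromosome 14, 79637690 to 79662170, minus strand), had 32.7, 0.0981 and 0.847 FPKM in B1, B2 and B3, and 0.0628, 49.2 and 0.328 FPKM in A1, A2 and A3. Nearly all Cnmd reads came from B1 and A2, with 962 and 1527 reads there against 3, 28, 2 and 10 reads in B2, B3, A1 and A3. Panx3, a channel protein of enlarging chondrocytes and of osteoblasts (ENSMUSG00000011118, chromosome 9, 37659902 to 37669235, minus strand), reached 7.53, 0.351 and 1.14 FPKM in B1, B2 and B3, and 0.0674, 9.59 and 0.335 FPKM in A1, A2 and A3. The fold of Panx3 between A2 and A1 was 142 (95% exact interval 55.3 to 524, from 4 reads in A1).

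Ihh, the signal of the set, was also among its lowest members (ENSMUSG00000006538, chromosome 1, 74945315 to 74951672, minus strand). Ihh had 1.87, 0.198 and 0.805 FPKM in B1, B2 and B3, from 91, 10 and 44 reads, and 0.190, 2.34 and 0.218 FPKM in A1, A2 and A3, from 10, 120 and 11 reads. It had the narrowest range of the 8 genes with reads in every library, 12.3-fold between A2 and A1 (95% exact interval 6.47 to 26.3). The interval of its level in B1, 1.505 to 2.29 FPKM, overlapped that in A2, 1.94 to 2.79 FPKM.

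By mean level over the 6 libraries the order was Chad, Comp, Snorc, Cnmd, Acan, Matn3, Hapln1, Panx3, Ihh and Matn1. Each step in that order was smaller than the SD of the higher gene within either group. The genes shared their highest libraries, so these SDs do not measure the spread of a difference between 2 genes. Comp, for example, was above Snorc in every library. The largest step, between Chad at 62.0 FPKM and Comp at 37.0 FPKM, stood against SDs of Chad of 67.2 FPKM in Zin libraries and 102 FPKM in OVX libraries (n = 3 each). Within B1 and within A2 the 5 leading genes had the same order, Chad, Comp, Snorc, Cnmd and Acan, although Snorc and Cnmd could not be separated by their counting intervals in B1 (29.5 to 36.2 FPKM for Snorc and 30.6 to 34.8 FPKM for Cnmd).

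The make-up of the cartilage signal differed between the libraries rich in it and the others. Comp made up 19.5%, 62.5% and 62.9% of the summed FPKM of the 10 genes in B1, B2 and B3, and 54.4%, 16.5% and 32.5% in A1, A2 and A3. Cnmd made up 10.4%, 0.307% and 1.09% in B1, B2 and B3, and 0.818%, 11.1% and 0.751% in A1, A2 and A3. The level of Comp was 2.93, 27.2 and 20.7 times that of Acan in B1, B2 and B3, and 44.9, 2.44 and 11.9 times in A1, A2 and A3. Comp and Chad thus led in all libraries, and the remaining 8 genes together were a larger part in B1 and A2.

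**Figure D2:**
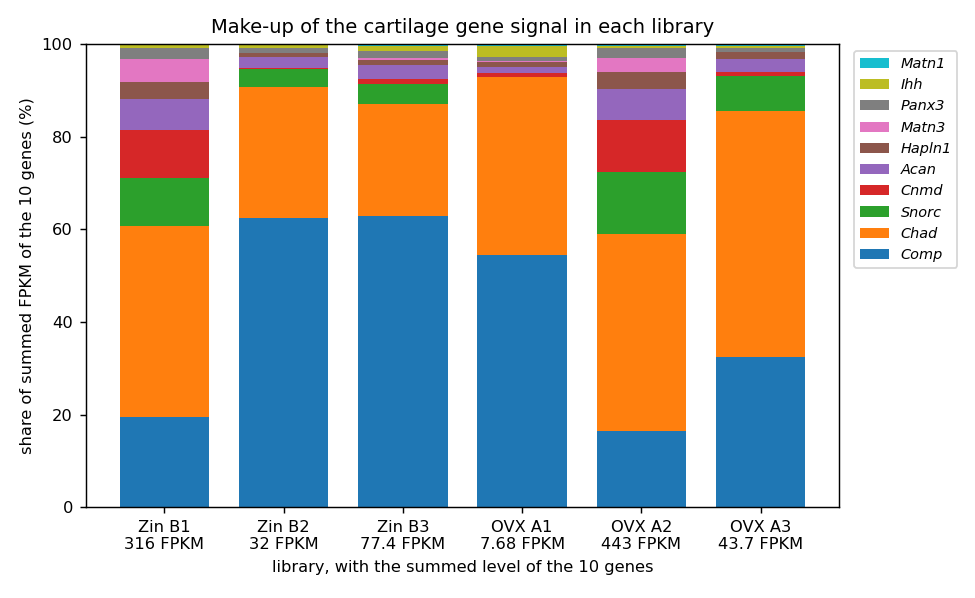
Share of the summed FPKM of the 10 cartilage genes held by each gene, in percent on the vertical axis, for the 6 libraries with Zin on the left; the summed level stands under each bar. In B1 and A2 Comp takes 19.5% and 16.5%, while in B2, B3 and A1 it takes over 54%.

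The libraries with the highest cartilage signal in each group, Zin B1 and OVX A2, had a similar but not equal profile. The level in B1 relative to A2 was 0.691 for Chad (95% exact interval 0.662 to 0.721), 0.699 for Acan (0.664 to 0.735) and 0.664 for Cnmd (0.612 to 0.721). Snorc was lower, at 0.551 (0.486 to 0.625), and Comp closer to equal, at 0.841 (0.800 to 0.883). Matn3 went the other way, at 1.15 (1.04 to 1.28). The libraries were picked for being the highest, so these ratios describe them and compare no conditions, and the intervals cover counting error only.

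**Figure D3:**
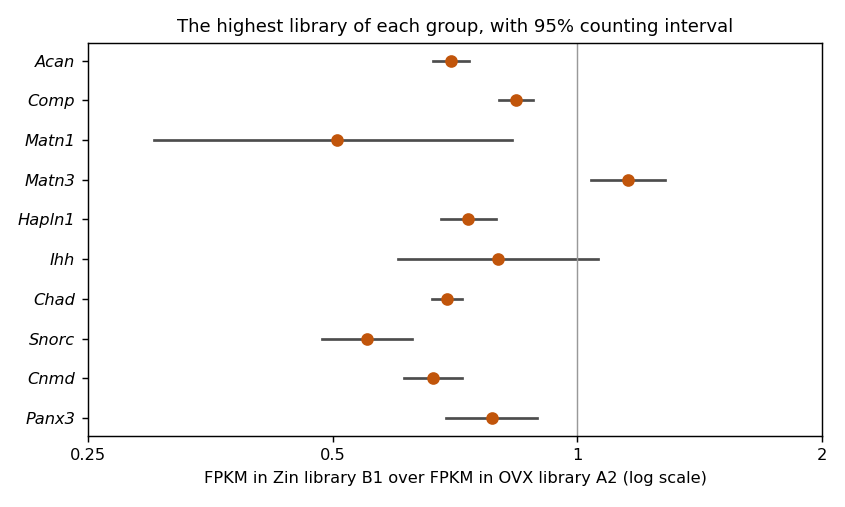
FPKM in Zin library B1 divided by FPKM in OVX library A2 for each cartilage gene, on a log axis, with 95% exact counting intervals; the vertical line marks equality. Matn3 at 1.15 lies to the right of the line, and the interval of Ihh crosses it.

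The Zin and OVX groups were compared gene by gene with limma on log2(FPKM + 1), over the 13968 genes whose mean level was 1 FPKM or more. No difference between Zin and OVX femurs was detected for the cartilage genes tested. Of the 10 genes 8 reached the level filter, and Matn1 and Ihh did not, with means of 0.502 and 0.936 FPKM. At an adjusted p under 0.05 (Benjamini-Hochberg over all genes tested), 0 of the 8 were called, against a background of 0.0% over all tested genes. At an unadjusted p under 0.05, 0 of the 8 passed, against 977 genes or 6.99% of all. The rule in the series' design text, an unadjusted p under 0.05 and an absolute log2 difference over 0.2, called 0 of the 8 and 785 genes or 5.62% of all. Zin and OVX libraries overlapped for all 10 genes, whereas 12.9% of all tested genes had no overlap between the groups.

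Comp had the largest difference of the 8, averaging 43.4 ± 21.3 FPKM in Zin libraries and 30.5 ± 37.3 FPKM in OVX libraries (SD, n = 3 each). Its difference, Zin minus OVX, was 1.16 ± 0.97 on the log2(FPKM + 1) scale (SE, limma, adjusted p = 0.884). Acan averaged 8.03 ± 11.3 FPKM in Zin and 10.4 ± 17.0 FPKM in OVX libraries, with a log2 difference of 0.26 ± 1.47 (limma, adjusted p = 0.994). The sign of the difference in means was thus opposite to that on the log scale. Chad averaged 52.6 ± 67.2 FPKM in Zin and 71.4 ± 102 FPKM in OVX libraries, with a log2 difference of 0.17 ± 1.57 (limma, adjusted p = 0.996). Cnmd, the most variable, averaged 11.2 ± 18.6 FPKM in Zin and 16.5 ± 28.3 FPKM in OVX libraries, and its 95% interval of the log2 difference ran from -4.62 to 4.59. The 8 differences ran from -0.02 for Hapln1 to 1.16 for Comp, with a median of 0.17 against -0.0084 over all genes tested. Their SEs ran from 0.97 to 1.90, against a median of 0.10 over all genes tested, so a difference of several fold in either direction was not detectable here. Without the level filter, the log2 difference was -0.07 ± 0.38 for Matn1 and 0.12 ± 0.51 for Ihh (SE, limma, adjusted p = 0.988 and 0.978).

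The sign of most differences depended on which libraries were included. The median log2 difference of the cartilage genes tested was -0.97 without B1, 0.91 without B2 and 0.51 without B3. It was -0.71 without A1, 1.65 without A2 and -0.21 without A3. These medians cover 8 genes without B1, B3 or A2. They cover 9 genes without B2, A1 or A3, where Ihh also passed the level filter. Each fit without 1 library thus gave a median away from that of all 6 libraries, and the median was negative without B1, A1 or A3. Without both B1 and A2 it was 0.61 over the 4 genes that then passed the level filter. No cartilage gene was called in these 7 fits (limma, adjusted p under 0.05), while all genes called were 0 without B1, 47 without A2 and 5 without both. Comp alone of the cartilage genes had an unadjusted p under 0.05 without A2, as did 1049 of all 13994 genes tested in that fit. The same held for Comp without both, as for 1406 of all 14009 genes then tested.

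**Figure D4:**
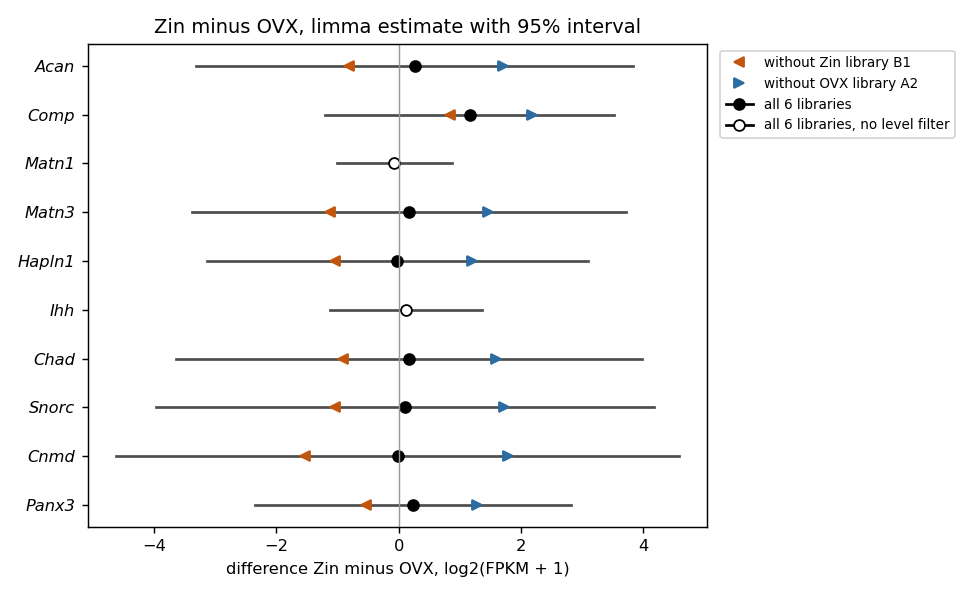
Difference Zin minus OVX of each cartilage gene on the log2(FPKM + 1) axis: circles with 95% limma intervals from all 6 libraries (open circles from the fit with no level filter), orange triangles without Zin library B1 and blue triangles without OVX library A2. Every interval spans 0, and leaving out B1 or A2 moves most genes to opposite sides of 0.

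Cartilage collagens followed the same libraries. All 8 were in the table and tested, 0 rose and 0 fell (limma, adjusted p under 0.05), and their median log2 difference was 0.05. Col2a1, the main fibril collagen of cartilage, had 113, 9.85 and 15.3 FPKM in B1, B2 and B3, and 17.1, 165 and 12.4 FPKM in A1, A2 and A3. Col10a1, the collagen of enlarged chondrocytes, had 17.8, 1.44 and 10.5 FPKM in B1, B2 and B3, and 0.0185, 58.2 and 2.63 FPKM in A1, A2 and A3. The balance of Col10a1 and Cnmd differed between libraries, since the level of Col10a1 was 0.544, 14.7 and 12.4 times that of Cnmd in B1, B2 and B3, and 0.294, 1.18 and 8.01 times in A1, A2 and A3, with few Cnmd reads in B2 and A1. Col11a2, a minor fibril collagen, ranged from 32.2 to 82.0 FPKM in Zin and from 27.7 to 125 FPKM in OVX libraries.

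Among 15 other genes of cartilage matrix or secretion, 8 were tested, 0 rose and 0 fell, and 9 of the 15 had B1 and A2 as their highest libraries. Among the 8 tested it was 7, against 7.48% of all genes tested. Cytl1, a small secreted protein of chondrocytes, had 99.2, 24.0 and 29.3 FPKM in B1, B2 and B3, and 1.70, 178 and 83.6 FPKM in A1, A2 and A3. Ucma, a matrix protein of resting chondrocytes, had 13.7, 0.136 and 0.252 FPKM in B1, B2 and B3, and 0, 16.5 and 1.09 FPKM in A1, A2 and A3. Clec3a, a cartilage lectin, had 30.3, 5.20 and 11.7 FPKM in B1, B2 and B3, and 0.294, 85.1 and 19.6 FPKM in A1, A2 and A3. A3 was relatively high in Cytl1 and Clec3a, as it was in Chad.

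Of the genes around Ihh, Pth1r, Gas1, Sufu, Ptch1 and Gli1 had narrower ranges over the libraries than Ihh. Hhip of the same list, singled out after its values were seen, had a range about as wide as that of Ihh. It had 0.655, 0.133 and 0.184 FPKM in B1, B2 and B3, and 0.0638, 0.824 and 0.200 FPKM in A1, A2 and A3. Of 15 genes of the hedgehog and PTHrP pathway 8 were tested, 0 rose and 0 fell, and their median log2 difference was -0.015. Pth1r, the receptor of parathyroid hormone-related protein, had 31.3, 8.84 and 21.2 FPKM in B1, B2 and B3, and 8.51, 41.6 and 9.78 FPKM in A1, A2 and A3. Gas1, a hedgehog co-receptor, had 4.63, 5.19 and 9.13 FPKM in B1, B2 and B3, and 3.19, 9.50 and 7.64 FPKM in A1, A2 and A3, and Sufu, an inhibitor of GLI factors, ranged from 4.597 to 5.19 FPKM in Zin and from 5.34 to 6.44 FPKM in OVX libraries. Ptch1 and Gli1, classical targets of hedgehog signalling that were singled out after their values were seen, were highest in B1 and A2. Ptch1 had 3.95, 2.29 and 2.20 FPKM in B1, B2 and B3, and 2.14, 4.08 and 2.19 FPKM in A1, A2 and A3. Gli1 had 0.915, 0.386 and 0.904 FPKM in B1, B2 and B3, and 0.151, 1.2003 and 0.375 FPKM in A1, A2 and A3.

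Of 12 chondrocyte transcription factors, 8 had B1 and A2 as their highest libraries. Of the 12, 8 were tested and 0 rose or fell, with a median log2 difference of 0.04. Among the 8 tested, 4 had B1 and A2 as their highest libraries, against 7.48% of all genes tested. Most of them varied little. Centred on each gene's mean log2(FPKM + 1), the median of those tested was 0.14 in B1 and 0.11 in A2. For the tested cartilage genes it was 2.24 and 2.62. Sox9, the master factor of chondrocytes and chosen here after its values were seen, had 3.56, 0.291 and 0.418 FPKM in B1, B2 and B3, and 0.294, 2.89 and 0.366 FPKM in A1, A2 and A3. Sox6, which is also expressed in red cell precursors, ranged from 6.55 to 11.8 FPKM in Zin and from 9.13 to 9.66 FPKM in OVX libraries, and B1 was its highest library. Runx2, shared with osteoblasts, ranged from 5.86 to 7.41 FPKM in Zin and from 4.63 to 6.87 FPKM in OVX libraries. Mef2c averaged 6.80 ± 0.501 FPKM in Zin and 7.87 ± 0.302 FPKM in OVX libraries (SD, n = 3 each), with a log2 difference of -0.19 ± 0.07 (limma, adjusted p = 0.704). Nfatc1 ranged from 11.8 to 13.5 FPKM in Zin and from 10.4 to 14.7 FPKM in OVX libraries.

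The enzymes that build the chondroitin sulfate chains of aggrecan were all tested, and 0 of 18 rose or fell, with a median log2 difference of 0.02. The glucuronosyltransferase B3gat3 ranged from 33.6 to 35.9 FPKM in Zin and from 34.8 to 37.4 FPKM in OVX libraries, and the sulfotransferase Chst12 from 30.9 to 35.5 FPKM in Zin and from 30.0 to 31.5 FPKM in OVX libraries. Chst3, another sulfotransferase, had 11.1, 25.2 and 21.5 FPKM in B1, B2 and B3, and 31.5, 29.7 and 27.5 FPKM in A1, A2 and A3, with a log2 difference of -0.67 ± 0.28 (limma, adjusted p = 0.704). Chsy3 ranged from 0.966 to 1.79 FPKM in Zin and from 0.652 to 1.197 FPKM in OVX libraries. B1 and A2 were the highest libraries of 7 of the 18 genes, against 7.48% of all genes tested. The 4 named here had far narrower ranges than Acan.

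Among 15 genes of aggrecan turnover and hyaluronan, 9 were tested, and 0 rose or fell. The collagenase Mmp13, also made by osteoblasts, had 155, 44.6 and 106 FPKM in B1, B2 and B3, and 28.8, 214 and 103 FPKM in A1, A2 and A3. The aggrecanase Adamts5 averaged 4.01 ± 0.120 FPKM in Zin and 3.23 ± 0.365 FPKM in OVX libraries, with a log2 difference of 0.25 ± 0.09 (SE, limma, adjusted p = 0.702). Its inhibitor Timp3 averaged 12.2 ± 0.335 FPKM in Zin and 14.8 ± 1.37 FPKM in OVX libraries, with a log2 difference of -0.26 ± 0.08 (SE, limma, adjusted p = 0.660). The groups did not overlap for either gene, as for 12.9% of all genes tested, and neither passed the test over all genes. The hyaluronan receptor Cd44 ranged from 36.2 to 41.7 FPKM in Zin and from 34.0 to 38.7 FPKM in OVX libraries.

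Growth plate regulators gave 0 of 12 tested genes that rose or fell, of 18 listed. The growth hormone receptor Ghr had 1.92, 5.15 and 8.19 FPKM in B1, B2 and B3, and 2.59, 3.19 and 2.13 FPKM in A1, A2 and A3. The Wnt inhibitor Wif1 had 25.7, 12.0 and 28.8 FPKM in B1, B2 and B3, and 17.5, 44.8 and 21.1 FPKM in A1, A2 and A3. Bmp6 ranged from 6.58 to 10.8 FPKM in Zin and from 6.44 to 8.41 FPKM in OVX libraries, and the BMP antagonist Grem1 from 4.34 to 7.61 FPKM in Zin and from 3.32 to 6.23 FPKM in OVX libraries. Of these 4 genes only Wif1 was highest in A2. Over the whole list, 5 of the 18 had B1 and A2 as their highest libraries. Among the 12 tested it was 4, against 7.48% of all genes tested.

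Of 18 relatives of the 10 genes in the same families 7 were tested, 0 rose and 0 fell. B1 and A2 were the highest libraries for 2 of the 18. Both were among the 7 tested, against 7.48% of all genes tested. Thbs1, a thrombospondin like Comp, had 115, 97.2 and 71.0 FPKM in B1, B2 and B3, and 87.3, 75.2 and 115 FPKM in A1, A2 and A3. Thbs2 ranged from 1.89 to 2.95 FPKM in Zin and from 2.34 to 3.07 FPKM in OVX libraries, and Thbs4 from 2.95 to 4.10 FPKM in Zin and from 2.35 to 6.31 FPKM in OVX libraries. Panx1, the widely expressed relative of Panx3, ranged from 3.19 to 3.62 FPKM in Zin and from 3.84 to 4.44 FPKM in OVX libraries (limma, adjusted p = 0.711).

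The 5 protein-coding genes with the profile nearest to the mean of the 8 tested cartilage genes were Col9a3, Ucma, Col9a1, Col2a1 and Pcolce2. Nearness was the root mean square difference of log2(FPKM + 1), centred on each gene's mean over the 6 libraries, among 11746 candidates, and it was 0.384 for Col9a3 and 0.592 for Pcolce2. Pcolce2, an enhancer of procollagen processing, had 5.82, 0.534 and 1.11 FPKM in B1, B2 and B3, and 0.163, 9.47 and 0.758 FPKM in A1, A2 and A3. Col9a1 and Col9a3 encode chains of collagen IX, which coats cartilage fibrils.

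Markers of other cell types moved between the same libraries, and their part in the cartilage values was not tested. Skeletal muscle markers, 12 of 12 in the table, summed to 86.6, 186 and 62.1 FPKM in B1, B2 and B3, and to 1688, 148 and 1008 FPKM in A1, A2 and A3, and were thus high in the OVX libraries with few cartilage reads. Pvalb had 15.6, 26.2 and 6.48 FPKM in B1, B2 and B3, and 318, 33.4 and 127 FPKM in A1, A2 and A3, with Myh4 at 0.825 to 5.28 FPKM in Zin and 8.76 to 69.9 FPKM in OVX libraries. Of the 11 muscle markers tested 0 rose or fell (smallest limma adjusted p = 0.660), and 7 had an unadjusted p under 0.05, against 6.99% of all genes tested. Tnnc2 was at 0 in 5 libraries. Adipocyte markers, 6 of 6 in the table, summed to 67.9, 486 and 814 FPKM in B1, B2 and B3, and to 160, 324 and 103 FPKM in A1, A2 and A3. Cfd, an adipokine, had 1.43, 276 and 559 FPKM in B1, B2 and B3, and 55.1, 184 and 9.25 FPKM in A1, A2 and A3, and Lep was at 0 in B1 and A3.

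Osteoblast markers, 12 of 12, summed to 3283, 2003 and 4413 FPKM in B1, B2 and B3, and to 2661, 6362 and 1885 FPKM in A1, A2 and A3. The osteoblast sum shared A2 as the highest library, while B3 exceeded B1. By gene, 5 of the 12 had B1 and A2 as their highest libraries, against 7.48% of all genes tested. Osteoclast markers, 9 of 9, summed to 1261, 614 and 1003 FPKM in B1, B2 and B3, and to 495, 1179 and 943 FPKM in A1, A2 and A3. B1 and A2 were the highest libraries for 7 of the 9. Among the 8 osteoclast markers tested it was 6, against 7.48% of all genes tested. Osteocyte markers, 6 of 6, summed to 59.4 to 107 FPKM in Zin and 86.4 to 136 FPKM in OVX libraries. Tendon markers, 7 of 7, summed to 13.2 to 26.1 FPKM in Zin and 17.2 to 34.1 FPKM in OVX libraries. Of the tested osteoblast, osteoclast, osteocyte and tendon markers 0 rose or fell.

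Joint surface markers, 6 of 6 in the table, had B1 and A2 as highest libraries for 0 of the 6. Among the 4 tested it was 0 too, against 7.48% of all genes tested. All 6 are summed here. They summed to 51.0, 105 and 129 FPKM in B1, B2 and B3, and to 39.0, 111 and 101.3 FPKM in A1, A2 and A3, and 0 of the 4 tested rose or fell. Prg4, lubricin of the joint surface, had 14.8, 63.3 and 74.8 FPKM in B1, B2 and B3, and 0.635, 44.4 and 56.3 FPKM in A1, A2 and A3. The level of Prg4 was 0.706, 86.2 and 31.8 times that of Acan in B1, B2 and B3, and 6.83, 1.48 and 47.0 times in A1, A2 and A3. A1 was the lowest library for Prg4, as it was for Comp, Acan and Chad.

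Marrow markers varied less between libraries. Neutrophil markers, 8 of 8, summed to 31154 to 31972 FPKM in Zin and 24835 to 27187 FPKM in OVX libraries, and erythroid markers, 7 of 8 in the table, to 31146 to 64722 FPKM in Zin and 43178 to 55408 FPKM in OVX libraries. B cell markers summed to 240, 446 and 399 FPKM in B1, B2 and B3, and to 526, 478 and 479 FPKM in A1, A2 and A3, with B1 lowest. Endothelial markers summed to 46.0 to 62.3 FPKM in Zin and 54.2 to 55.6 FPKM in OVX libraries, and macrophage markers to 512 to 556 FPKM in Zin and 481 to 496 FPKM in OVX libraries. Of these lists 0 markers rose or fell by limma at an adjusted p under 0.05, while 5 of 8 neutrophil and 2 of 6 B cell markers had an unadjusted p under 0.05, against 6.99% of all genes tested.

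**Figure D5:**
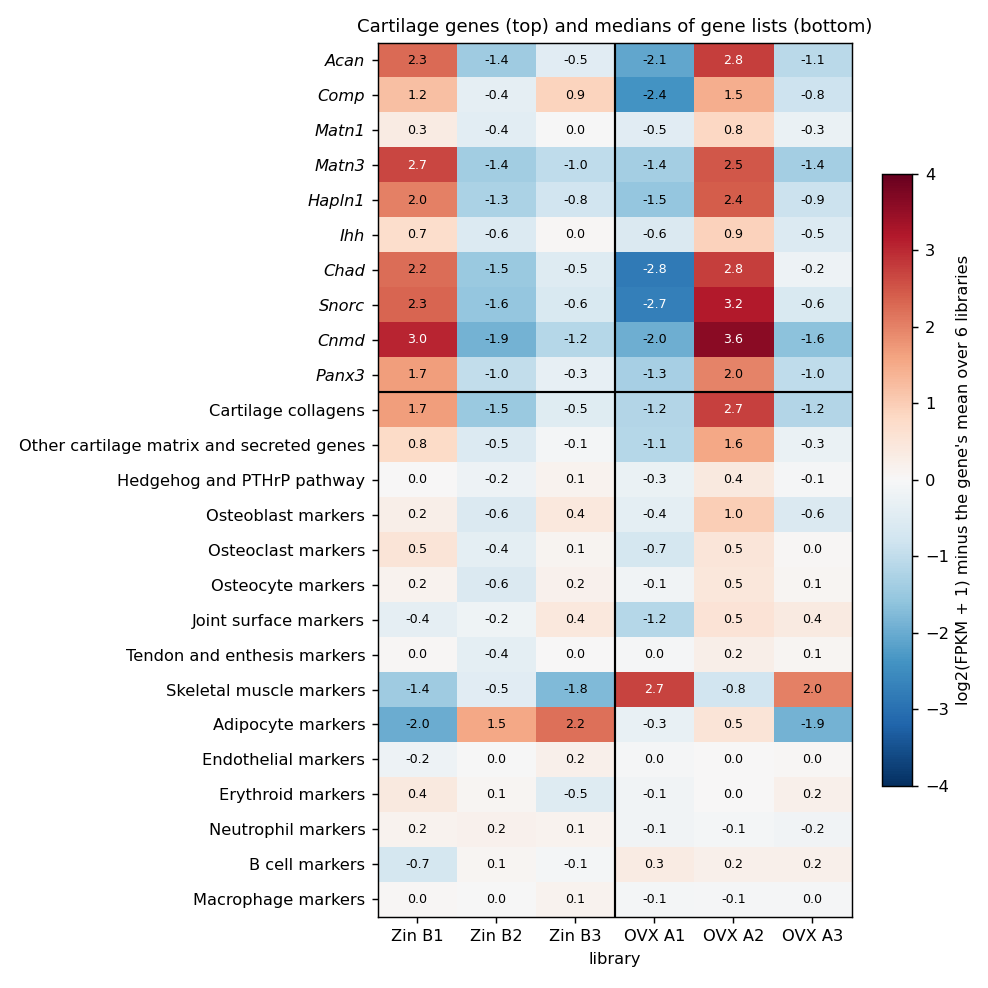
Level in each library minus the gene's mean over the 6 libraries, on the log2(FPKM + 1) scale, for the 10 cartilage genes (top) and as medians of tested genes for the other lists (bottom), with Zin libraries on the left; red is above and blue below the mean. Columns B1 and A2 are red for all 10 genes and for cartilage collagens, while muscle markers are red in A1 and A3 and adipocyte markers in B2 and B3.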

How the data were processed

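The authors deposited FPKM values of 6 mouse femur RNA libraries, with gene lengths, in 1 table. Per the submitters' processing notes, Trimmomatic, FastQC, STAR and featureCounts were used with build mm10. Tool versions, strandedness and annotation were not given in these sources. The gene coordinates of the table were used, and all 10 cartilage genes had the same start and end in GENCODE release M21.

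Multiplied by gene length, 100% of the FPKM values fell on whole reads within 0.01 read, giving reads per gene and the exact 95% Poisson and binomial intervals. These and the limit of 3 reads for a count of 0 cover counting error only. No 2 libraries agreed within sampling noise.

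Genes averaging 1 FPKM or more were tested with limma 3.58.1 (R 4.3.3, trended variances) on log2(FPKM + 1), Zin minus OVX, with Benjamini-Hochberg adjustment and a threshold of 0.05. The scale understates changes of low genes. The fit was checked on simulated data, in which all genes had the same relative spread between libraries. That spread was far smaller than in the cartilage genes, so the check does not cover genes as variable as these. The cartilage genes and all other gene lists were chosen with earlier results of these data known. The rule for named genes took the 10 genes, the 5 nearest profiles and, per list, the 2 genes with the highest mean level and the 2 with the largest log2 difference. Of the marker lists of other cell types, only some genes of the rule are named and the rest are given as sums. Sox9, Ptch1, Gli1, Hhip, Tnnc2 and Lep lie outside the rule and were chosen after their values were seen. Figures and sums used Python 3.11.15.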

Additional observations from a re-analysis of the deposited data

How the results depend on the processing

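Calls of the cartilage genes were 0 under every alternative run, and only signs turned, in 22 of 51 leave-one-out values and 11 of 73 others; the cause was not tested. Over all genes, the count of 0 became 2 with array weights, 785 under the rule of the design text, 0 to 47 with 1 library left out (47 without A2), and 5 without A2 and B1, an alternative chosen after seeing the data like limma voom on the recovered reads, which called 0 (858 at an unadjusted p under 0.05). Signs turned with a pseudocount of 5 for Acan (-0.0045) and Snorc (-0.15), with a pseudocount of 0.1 for Hapln1 (0.29) and Cnmd (0.28), with voom for Hapln1 (0.52) and Cnmd (0.40), and with array weights for Acan (-0.36), Matn3 (-0.39), Chad (-0.57), Snorc (-0.57) and Panx3 (-0.17). With 1 library left out the log2 difference ran from -0.80 to 1.70 for Acan, 0.26 to 2.18 for Comp, -1.12 to 1.45 for Matn3, -1.04 to 1.19 for Hapln1, -0.13 to 0.43 for Ihh, -1.19 to 1.59 for Chad, -1.23 to 1.72 for Snorc, -1.54 to 1.78 for Cnmd and -0.54 to 1.29 for Panx3. Signs turned without A1 for Acan (-0.71), Matn3 (-0.47), Ihh (-0.13), Chad (-1.19), Snorc (-1.23) and Panx3 (-0.37); without A3 for Acan (-0.21), Matn3 (-0.47), Ihh (-0.12), Snorc (-0.17) and Panx3 (-0.21); without A2 for Hapln1 (1.19) and Cnmd (1.78); without B1 for Acan (-0.80), Matn3 (-1.12), Chad (-0.90), Snorc (-1.04) and Panx3 (-0.54); without B2 for Hapln1 (0.62) and Cnmd (0.93); and without B3 for Hapln1 (0.36) and Cnmd (0.56). Median-of-ratios scaling moved the mean summed level of the 10 genes from 142 to 141 FPKM in Zin and from 165 to 164 FPKM in OVX libraries. No paired analysis was possible because the columns of the Zin libraries carry no number of the labels. The planned count models (edgeR, DESeq2) were not run, and voom is the only fit made on the recovered reads.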
